A study of Glycine max with 24 samples.

Results

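A set of 79 soybean genes, of 57105 gene IDs counted, had at least a 5-fold higher level after NaCl than without it in roots and in leaves, and in both a transgenic line and its wild type. The level of a gene was its CPM, its counts scaled to the same total of gene reads in every library. The members were chosen by a ratio, the mean CPM of the NaCl libraries plus 0.5, divided by the mean CPM of the untreated libraries plus 0.5, which had to reach 5 in each of 4 pairs of groups. The NaCl contrast is therefore described here without a test, and the tests concern levels of the genotypes and of the organs within a condition. Those levels also entered the rule, which all genes did not have to pass. The shares of all genes printed beside the counts are therefore a description and no matched comparison. Differences between 2 NaCl changes draw on the changes that chose the members, so they are given as a description and nothing is read from their counts.

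RNA-seq read counts came from 24 libraries of soybean (Glycine max), in 8 groups of 3. The groups were GmNFYA roots with 150 mM NaCl for 6 h, untreated GmNFYA roots (0 h), Jack roots with 150 mM NaCl for 6 h, untreated Jack roots (0 h), and the same 4 groups of leaves. GmNFYA is a transgenic line, titled N3, that the labels describe as overexpressing GmNFYA, and Jack is a wild-type cultivar. The labels give neither the promoter of the transgene, nor the plants' age, nor how many transgenic events N3 stands for. No untreated group was taken at 6 h, so NaCl and elapsed time cannot be told apart.

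High salt acts on a plant first as a shortage of water and later through the build-up of sodium and chloride in its tissues. Roots meet the salt directly, while leaves receive it through the water stream and through signals from the root, among them the hormone abscisic acid. Genes that answer to abscisic acid or to lost water are therefore often switched on in roots and leaves alike, and many of their products protect membranes and proteins, close stomata or switch on further genes. NF-YA is the DNA-binding subunit of the NF-Y transcription factor, which recognises the CCAAT sequence in promoters. The IDs of the count tables matched 0 entries of the gene-name table used here, so the members are given by ID with no name, role or sequence, and the organ labels were not checked against marker genes.

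Libraries held 17005570 to 23459341 gene reads in root and 17696429 to 21053889 in leaf. Reads with more than 1 alignment made up 5.19 to 10.3% of all reads in root and 4.87 to 9.29% in leaf, so the level of a gene with a near-identical copy is uncertain. All 79 members passed the low-count filter of every fit. Members with few untreated reads could pass it through the NaCl libraries alone, which the rule required to be high. Whether replicates are separate plants is not stated in the labels, so p-values refer to the variation among these libraries, part or all of which could be technical. In whole organs, fewer cells of a type and less RNA per cell cannot be told apart.

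Taken singly, a ratio of at least 5 was reached by 1.43% of all IDs in GmNFYA roots, 1.12% in Jack roots, 0.76% in GmNFYA leaves and 0.578% in Jack leaves. Among the 79 members the median ratio was 10.5 in GmNFYA roots, 9.48 in Jack roots, 16.2 in GmNFYA leaves and 11.4 in Jack leaves. The highest ratio of any member was 110 in GmNFYA roots, 91.3 in Jack roots, 348 in GmNFYA leaves and 325 in Jack leaves. Every NaCl library lay above every untreated library for all 79 members in each of the 4 pairs of groups, against 17.9, 16.0, 19.7 and 16.6% of all IDs in the same order. The rule used these values, and nothing is read from the counts. GmNFYA roots gave the highest of the 4 ratios for 18 members, Jack roots for 15, GmNFYA leaves for 39 and Jack leaves for 7. The lowest ratio was more evenly placed, with 20 members in GmNFYA roots, 21 in Jack roots, 14 in GmNFYA leaves and 24 in Jack leaves. All 4 ratios were at least 10 for 13 members, and for 31 members the lowest ratio lay between 5 and 6.

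**Figure D1:**
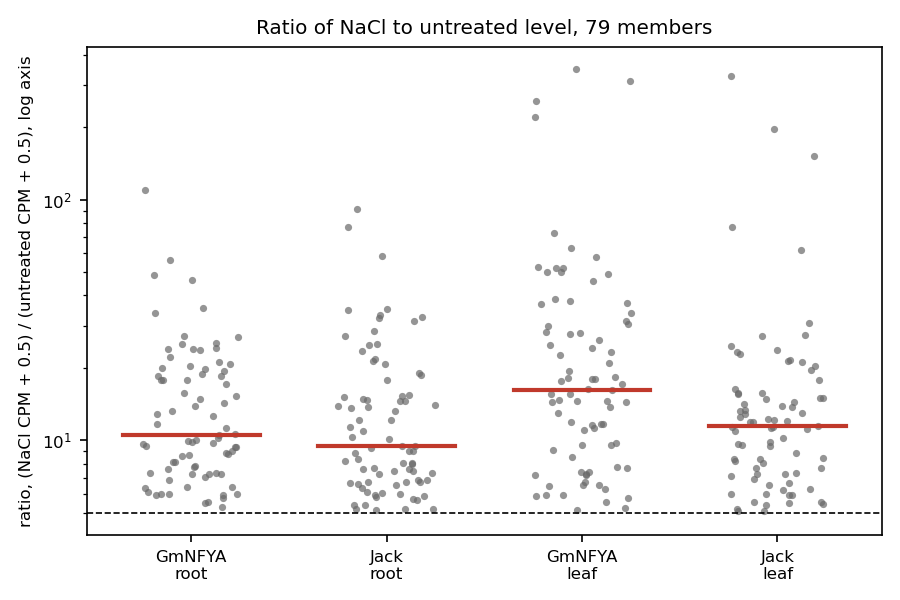
Ratio of NaCl to untreated level (log axis, no unit) of the 79 members in GmNFYA roots, Jack roots, GmNFYA leaves and Jack leaves. Each point is a gene, the red bar is the median (10.5, 9.48, 16.2 and 11.4 in that order) and the dashed line is the threshold of 5 that chose the members.

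Many members were close to absent without NaCl. Their mean untreated level was under 1 CPM for 25 of 79 in GmNFYA roots, 27 in Jack roots, 34 in GmNFYA leaves and 37 in Jack leaves. No read at all was counted for 3 members in each of untreated Jack roots, GmNFYA leaves and Jack leaves, and for 0 members in untreated GmNFYA roots. With NaCl, the mean over the 4 groups ranged between 3.69 and 1007 CPM, with a median of 50.1 CPM. In the heat map of levels, some members stand high in root libraries, some in leaf libraries, and many in both.

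**Figure D2:**
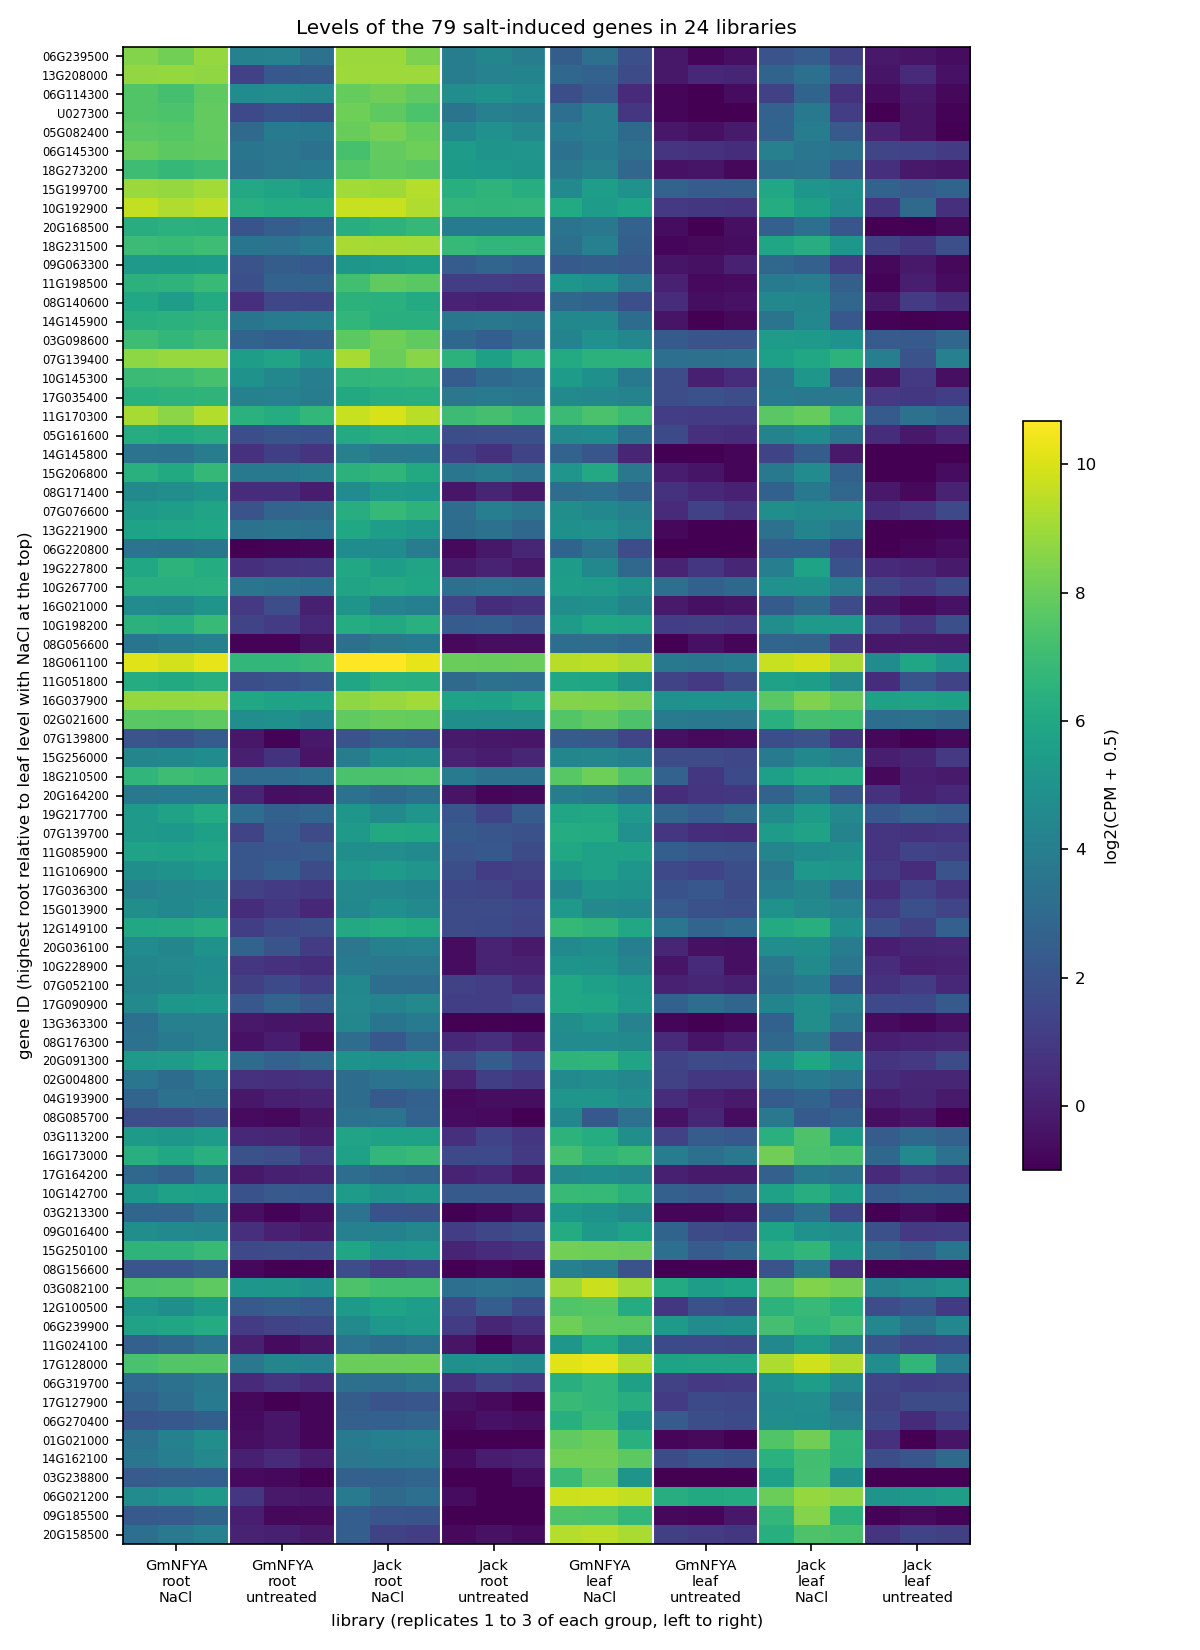
Level of each of the 79 members, as log2(CPM + 0.5), in the 24 libraries, with root groups to the left of leaf groups and NaCl to the left of untreated in each genotype. Genes are ordered by the ratio of root to leaf level with NaCl; 13G208000 and 06G239500 are near the top and 20G158500 is at the bottom.

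Added up, the 79 members held 8725 ± 807 CPM in GmNFYA roots with NaCl (SD, n = 3 here and below) and 796.9 ± 21.4 CPM in untreated GmNFYA roots. Jack roots held 10420 ± 517 CPM with NaCl and 1222 ± 18.2 CPM untreated. GmNFYA leaves held 8242 ± 1574 CPM with NaCl and 415.9 ± 41.6 CPM untreated. Jack leaves held 5325 ± 1284 CPM with NaCl and 364.1 ± 66.1 CPM untreated. With NaCl, the sums of GmNFYA roots (8006 to 9598 CPM) all lay below those of Jack roots (9849 to 10860 CPM), whereas those of GmNFYA leaves (6492 to 9545 CPM) and Jack leaves (4317 to 6770 CPM) overlapped. A few members carried much of each sum: with NaCl, the 3 most abundant made up 26.6% in GmNFYA roots, 29.6% in Jack roots, 30.9% in GmNFYA leaves and 35.4% in Jack leaves.

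The most abundant member with NaCl was 18G061100. It had 1114, 935.3 and 1221 CPM in GmNFYA roots with NaCl, against 105.5, 105.8 and 119.3 CPM in untreated ones. Jack roots gave 1630, 1624 and 1191 CPM with NaCl and 253, 246.3 and 253.1 CPM untreated. It was also abundant in leaves, with 673.2, 724.4 and 597.3 CPM in GmNFYA leaves and 829.7, 953.2 and 590.8 CPM in Jack leaves with NaCl. Without NaCl, leaves of GmNFYA had only 12.6, 11.3 and 13.03 CPM and those of Jack 25.4, 60.0 and 34.1 CPM, with no overlap between the genotypes. Its ratios were accordingly 9.85 and 5.90 in GmNFYA and Jack roots, and 52.0 and 19.6 in GmNFYA and Jack leaves.

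The other members with the highest NaCl levels divided between the organs. The gene 17G128000, higher in leaf, had 161.3, 185 and 185.9 CPM in GmNFYA roots and 1114, 1305 and 651.2 CPM in GmNFYA leaves with NaCl. The gene 11G170300, higher in root, had 571.5, 394 and 631.8 CPM in GmNFYA roots and 122.3, 160.3 and 123.3 CPM in GmNFYA leaves with NaCl. For 10G192900 the corresponding levels were 771.1, 614.2 and 722.4 CPM in GmNFYA roots and 69.7, 43.7 and 53.9 CPM in GmNFYA leaves. For these 3 genes root and leaf libraries of GmNFYA with NaCl did not overlap.

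The 4 members with the highest ratios over the 4 pairs of groups (by geometric mean) had their largest ratios in leaves, and 3 of them had almost no reads in untreated leaves. For 01G021000, GmNFYA leaves with NaCl had 228, 267 and 83.4 CPM and untreated ones 0.0502, 0.113 and 0 CPM, a ratio of 348 that rests on 3 untreated reads and so largely on the 0.5 CPM added to both sides. Its levels in Jack leaves were 179, 286 and 99.1 CPM with NaCl and 1.09, 0 and 0.292 CPM untreated, a ratio of 196. In roots with NaCl the same gene reached 9.999, 16.87 and 27.03 CPM in GmNFYA and 14.2, 16.2 and 16.8 CPM in Jack, below every leaf library with NaCl. The gene 09G185500 had ratios of 7.84 in GmNFYA roots, 9.30 in Jack roots, 220 in GmNFYA leaves and 325 in Jack leaves, with 10 and 4 reads over untreated GmNFYA and Jack leaves. No read of 03G238800 was counted in untreated leaves of either genotype, and with NaCl it had 122, 229.8 and 32.2 CPM in GmNFYA leaves and 51.4, 146 and 28.2 CPM in Jack leaves. Its ratios of 257 and 151 in GmNFYA and Jack leaves, like those of 09G185500 in leaves, also rest largely on the added 0.5 CPM. The gene 20G158500 was an exception, with 1.81, 1.64 and 1.36 CPM in GmNFYA leaves and 1.19, 2.08 and 1.80 CPM in Jack leaves untreated. Its ratios were 13.8 in GmNFYA roots, 5.18 in Jack roots, 312 in GmNFYA leaves and 61.7 in Jack leaves.

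At the edge of the rule, 06G239500 and 16G037900 were members with a lowest ratio of 5.07 each and 10G267700 with 5.11. Just outside were 01G106800 with 4.96, 16G164800 with 4.93 and 02G118500 with 4.89. For 16G164800 the other 3 ratios were high, at 49.9 in GmNFYA roots, 18.9 in GmNFYA leaves and 14.9 in Jack leaves, and only Jack roots kept it out.

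The libraries of a group did not carry the NaCl level of the members equally. In this paragraph, all genes means those with a mean of at least 1 CPM over the 24 libraries. Among GmNFYA leaves with NaCl, replicate 3 was the lowest of the 3 libraries for 68 of 79 members, compared with 31.7% of all genes, and the median member stood at 0.749 of its group mean there. That library also had 9.29% of reads with more than 1 alignment, against 5.01 and 4.87% in replicates 1 and 2. Among Jack leaves with NaCl, replicate 2 was the highest for 60 members and replicate 3 the lowest for 58, compared with 25.2 and 33.9% of all genes. In GmNFYA roots with NaCl, replicate 3 was the highest for 66 members, compared with 33.4% of all genes. Jack roots with NaCl were even, with each library highest for 22 to 32 members. The median coefficient of variation of the members with NaCl was 15.3% in GmNFYA roots, 16.0% in Jack roots, 26.5% in GmNFYA leaves and 40.0% in Jack leaves, against 9.40, 12.4, 10.9 and 13.5% over all genes in the same order. The part of multiply aligned reads in these differences was not tested.

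**Figure D3:**
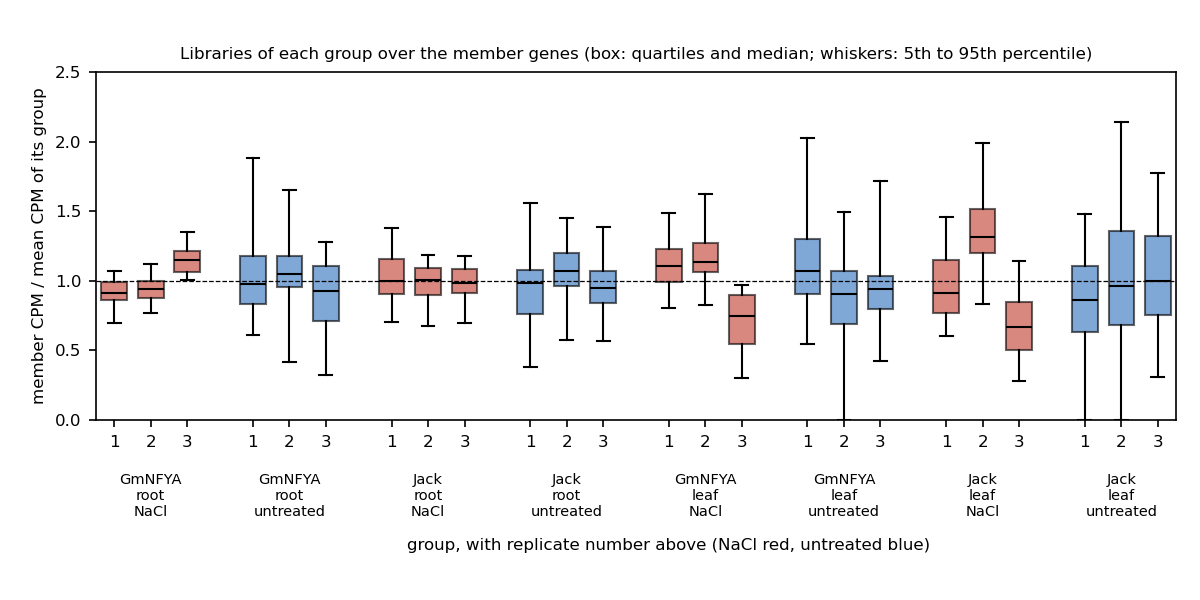
Level of each member in a library divided by its mean over the 3 libraries of the group (no unit), for all 24 libraries; boxes give quartiles and median, whiskers the 5th to 95th percentile, red NaCl and blue untreated. Replicate 3 lies low in both NaCl leaf groups and high in NaCl roots of GmNFYA.

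In leaves with NaCl, members were more often higher than lower in GmNFYA. The rule used these levels, and members varied more among the libraries of a group than genes with a mean of at least 1 CPM did. The shares below are therefore a description. By edgeR's quasi-likelihood test with Benjamini-Hochberg adjustment over all genes, 21 members were higher and 2 lower in GmNFYA, with the background at 3.65% of all genes higher and 5.95% lower. The 23 called members were 29.1% of the 79, beside 9.61% of all genes called in either direction. The median log2 difference (GmNFYA minus Jack) was 0.56 over the members and -0.01 over all genes tested, and 60 of 79 members had a positive difference. The count was 14 (13 higher, 1 lower) without GmNFYA NaCl replicate 1 and 13 (11 higher, 2 lower) without its replicate 2. Leaving out both leaf NaCl libraries numbered 3, which stood low, gave 18 (17 higher, 1 lower). For these and the later counts under alternatives, the share of all genes called in the same fit is not given. A change in such a count may therefore hold for all genes too.

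The largest rise in GmNFYA over Jack leaves with NaCl was in 04G193900. Its levels were 33.3, 33.6 and 26.1 CPM in GmNFYA and 4.73, 6.39 and 3.48 CPM in Jack, with no overlap. The log2 difference was 2.60 ± 0.22 (SE), a 6.04-fold difference with an adjusted p of 2.17e-05. For 03G213300, the levels were 36.9, 30.7 and 22.8 CPM in GmNFYA and 4.92, 9.44 and 2.35 CPM in Jack (log2 difference 2.35 ± 0.40, adjusted p = 0.005). The gene 20G158500 reached 659, 718.3 and 592 CPM in GmNFYA leaves, one of the highest levels of any member there, and 81.2, 167 and 156 CPM in Jack leaves. Its log2 difference was 2.21 ± 0.24 (adjusted p = 0.000266). The 2 members lower in GmNFYA were 18G231500, described further on, and 03G098600. For 03G098600 the levels were 18.9, 29.9 and 21.4 CPM in GmNFYA and 42.5, 38.8 and 30.6 CPM in Jack, and the log2 difference of -0.74 ± 0.20 (adjusted p = 0.0328) lost its call under 6 of 17 alternatives, with adjusted p between 0.0108 and 0.134. Of those 6, 4 each leave out 1 of GmNFYA NaCl replicates 1 and 3 and Jack NaCl replicates 1 and 2, 1 leaves out GmNFYA untreated replicate 3, and 1 leaves out both NaCl libraries numbered 3.

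In untreated leaves, 7 members were higher and 4 lower in GmNFYA, 13.9% of the members beside 4.51% of all genes (2.3% higher, 2.21% lower), and the median log2 difference was 0.15 over the members and -0.01 over all genes. These counts rest on few libraries: without GmNFYA untreated replicate 1, 2 or 3 the number called was 4, 7 or 4, and without Jack untreated replicate 1 it was 5, with no more higher than lower members in 3 of these 4 cases. The largest rise was in 18G210500, with 5.78, 1.36 and 2.58 CPM in GmNFYA and 0.0950, 0.480 and 0.390 CPM in Jack (log2 difference 3.25 ± 0.66, adjusted p = 0.0235). For 10G267700 the levels were 9.34, 5.65 and 7.02 CPM in GmNFYA and 2.23, 1.60 and 2.48 CPM in Jack (log2 difference 1.70 ± 0.33, adjusted p = 0.0172). Both calls were lost without GmNFYA untreated replicate 1 or 3 or Jack untreated replicate 1 or 2, with adjusted p up to 0.0842 and 0.0759. The strongest fall that kept its call under all 16 alternatives was in 11G170300, with 1.71, 1.64 and 1.62 CPM in GmNFYA and 4.47, 9.87 and 7.30 CPM in Jack (log2 difference -2.20 ± 0.34, adjusted p = 0.00528).

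The NaCl change in leaves was larger in GmNFYA than in Jack for 7 members and smaller for 0, 8.86% of the members beside 2.45% of all genes (0.781% larger, 1.67% smaller). The rule used these changes, and nothing is read from the count. For this interaction the median member had a log2 difference of 0.38, and the median of all genes was 0.00. The 7 genes were 07G052100, 17G164200, 17G127900, 20G158500, 04G193900, 15G250100 and 16G037900. Here DESeq2 called 13 members, 12 larger and 1 smaller in GmNFYA. Without GmNFYA untreated replicate 1, 2 or 3 the edgeR count was 4, 1 or 0, and leaving out GmNFYA NaCl replicate 1 gave 2 and leaving out its replicate 2 gave 1. For 17G127900, GmNFYA leaves had 115, 105 and 77.3 CPM with NaCl and 1.56, 2.599 and 2.42 CPM untreated, while Jack leaves had 24.4, 26.2 and 12.7 CPM with NaCl and 1.995, 2.72 and 2.63 CPM untreated. The untreated levels of the genotypes overlapped and the NaCl levels did not (difference of the log2 changes, or interaction, 2.40 ± 0.44). For 15G250100, GmNFYA leaves had 287, 275 and 259 CPM with NaCl and 8.99, 4.75 and 6.46 CPM untreated, and Jack leaves 81.6, 101 and 42.1 CPM with NaCl and 7.70, 5.44 and 10.8 CPM untreated (interaction 2.14 ± 0.49). The call for 15G250100 was lost under 12 of 17 alternatives, among them the omission of any 1 of the 6 GmNFYA leaf libraries, of Jack untreated replicate 1 or 3, or of Jack NaCl replicate 1. For 04G193900 it was lost under 6, for 16G037900 under 4, for 17G127900 under 3 and for 20G158500 under 2, each of which leaves out 1 untreated or NaCl GmNFYA library or, for 04G193900 also, 1 untreated Jack library.

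In roots, more members were lower than higher in GmNFYA, as was the case for all genes. Whether this balance differs from that in leaves was not tested. In untreated roots, 14 members were higher and 21 lower in GmNFYA, 44.3% of the members beside 23.3% of all genes, of which 10.7% were higher and 12.6% lower. The median log2 difference was -0.06 over the members and 0.01 over all genes. Untreated GmNFYA roots had 5.19 to 5.88% of reads with more than 1 alignment and untreated Jack roots 9.24 to 10.3%, and the part of this in the result was not tested. With NaCl, 9 members were higher and 15 lower in GmNFYA roots, 30.4% of the members beside 16.9% of all genes (7.05% higher, 9.9% lower), with medians of -0.14 over the members and -0.02 over all genes. Without GmNFYA NaCl replicate 3, in which 66 members were at their highest, 5 were higher and 15 lower. The share of all genes called in that fit is not given here.

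Some of the largest untreated root differences were in genes with few reads. The genes given here passed the low-count filter only through their NaCl root libraries, which the rule required to be high. The number of members called in untreated roots includes them. For 13G363300 and 09G185500, no read was counted in untreated Jack roots, and GmNFYA roots had 19 and 14 reads over the group. Set against 3 reads over the group, these genes were 5.89-fold and 4.34-fold higher in GmNFYA (edgeR adjusted p = 0.0386 and 0.0178). These folds take the 19 and 14 reads as exact, so they are not lower bounds under counting error. Of the 14 reads of 09G185500, 10 were in replicate 1. The call for 13G363300 was lost under 9 of 16 alternatives, among them any of the 6 untreated root libraries left out, and that for 09G185500 without replicate 1 of untreated GmNFYA roots or of untreated Jack roots. The gene 06G220800 had 2 reads over untreated GmNFYA roots and 23 over untreated Jack roots, a 12.4-fold difference with an exact 95% interval of 3.05 to 108 for counting error alone. Its adjusted p was 0.0165, and the call was lost without untreated GmNFYA replicate 1 or 2 or untreated Jack replicate 3.

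More abundant members gave differences with smaller standard errors in untreated roots. The gene 13G208000 had 1.96, 4.10 and 4.39 CPM in untreated GmNFYA roots and 14.8, 17.4 and 18.6 CPM in untreated Jack roots (log2 difference -2.38 ± 0.19, adjusted p = 5.26e-07). With NaCl its levels were 434, 449 and 428 CPM in GmNFYA and 493, 492 and 500 CPM in Jack. By ratio, though not by difference in CPM, the genotypes thus stood far closer with NaCl than without it. The NaCl change of 13G208000 was larger in GmNFYA (interaction 2.06 ± 0.24). U027300, on an unplaced scaffold, followed the same course, with 2.44, 3.36 and 2.98 CPM in GmNFYA and 10.6, 16.2 and 14.6 CPM in Jack without NaCl, and 178, 165 and 232 CPM in GmNFYA and 271, 220 and 163 CPM in Jack with it (interaction 2.01 ± 0.32). In 06G145300 (interaction 1.75 ± 0.27) the genotypes also stood closer by ratio with NaCl, but there the means came closer in CPM too. Its untreated root means were 10.92 CPM in GmNFYA and 36.25 CPM in Jack. With NaCl they were 228.7 CPM in GmNFYA and 219.4 CPM in Jack, and the libraries of the genotypes overlapped. These 3 genes are given here by a choice made after their values were seen.

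In all, the NaCl change in roots was larger in GmNFYA for 13 members and smaller for 5, 22.8% of the members beside 8.29% of all genes (4.28% larger, 4.01% smaller), and DESeq2 called 13 and 11. The rule used these changes too, and nothing is read from the counts. Reads with more than 1 alignment made up 9.24 to 10.3% in untreated Jack roots and 6.11 to 6.63% in Jack roots with NaCl. In GmNFYA roots they made up 5.19 to 5.88% untreated and 5.38 to 5.61% with NaCl. The part of this in the root interactions, those of the genes above included, was not tested. The medians were -0.09 over the members and -0.01 over all genes, so the median and the balance of calls differ in sign. Of the members with a larger change, 09G016400 had 27.0, 23.0 and 20.8 CPM in GmNFYA roots and 17.2, 17.1 and 21.0 CPM in Jack roots with NaCl. Untreated, it had 1.003, 0.559 and 0.366 CPM in GmNFYA and 1.64, 2.29 and 3 CPM in Jack (interaction 2.16 ± 0.35). For 08G176300 the interaction was 2.45 ± 0.65, and the call was lost under 6 of 16 alternatives, 5 of which leave out 1 library each: untreated GmNFYA replicate 1 or 3, GmNFYA NaCl replicate 2, or untreated Jack replicate 1 or 2.

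In 11G198500 and 08G140600 the root difference between genotypes turned round with NaCl. The share of all genes that did so was not computed and the rule used these changes, so nothing is read from their number. The gene 11G198500 had 89.2, 95.9 and 115 CPM in GmNFYA roots and 141, 225 and 204 CPM in Jack roots with NaCl. Untreated, it had 3.06, 5.78 and 6.00 CPM in GmNFYA and 1.64, 1.71 and 1.41 CPM in Jack, so the order of the genotypes was the opposite, with no overlap in either condition. Its interaction was -2.61 ± 0.38. The gene 08G140600 had 64.1, 45.7 and 69.3 CPM in GmNFYA and 89.5, 84.1 and 70.1 CPM in Jack with NaCl, and 1.05, 2.33 and 2.25 CPM in GmNFYA and 0.602, 0.529 and 0.546 CPM in Jack untreated (interaction -2.22 ± 0.44).

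With NaCl, 9 members (11.4%) were called for genotype in both organs, beside 2.54% of the 32699 genes tested in both. A further 15 (19.0%) were called in root alone, beside 14.8% of these genes, and 14 (17.7%) in leaf alone, beside 6.65%. The other 41 (51.9%, beside 76.0%) were called in neither. A call in 1 organ alone does not show that the organs differ, which was not tested. Of the 9, 6 were higher in GmNFYA in both organs (7.59% of the members, beside 0.609% of genes), 2 were lower in both (2.53%, beside 1.54%) and 1 went opposite ways (1.27%, beside 0.388%). The last, 18G210500, had 101, 130 and 117 CPM in GmNFYA roots and 160, 157 and 164 CPM in Jack roots with NaCl (log2 difference -0.60 ± 0.12, adjusted p = 0.0033). In leaves with NaCl it had 199, 271 and 173 CPM in GmNFYA and 47.0, 70.2 and 71.9 CPM in Jack (log2 difference 1.69 ± 0.36, adjusted p = 0.0169). This leaf difference no longer passed when GmNFYA NaCl replicate 2, or both NaCl libraries numbered 3, were left out. In roots the genotypes did not overlap, with GmNFYA below Jack, and in leaves they did not overlap, with GmNFYA above Jack.

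**Figure D4:**
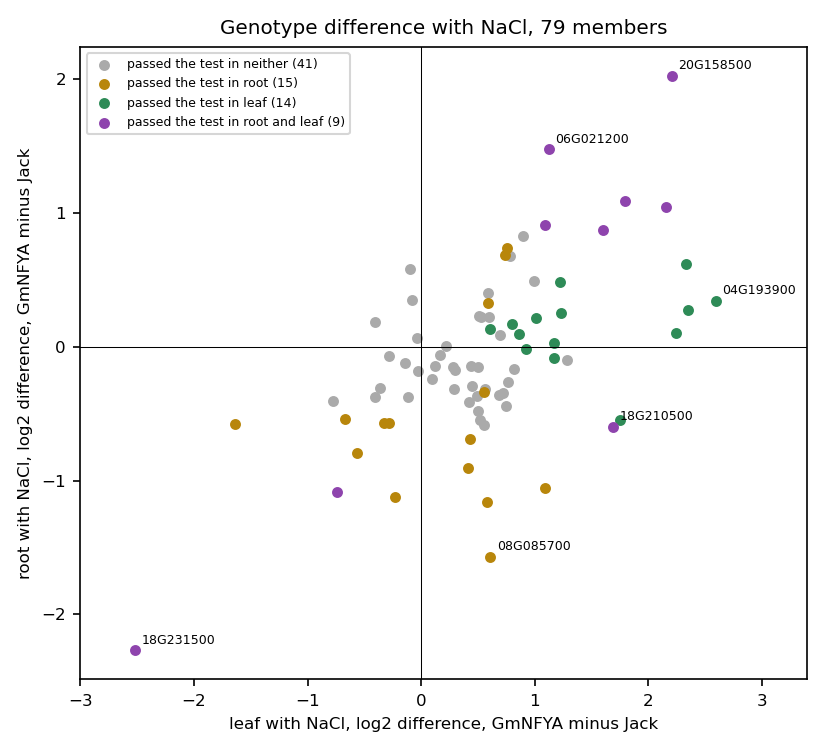
Log2 difference between GmNFYA and Jack with NaCl in leaf (x axis) and root (y axis) for the 79 members, coloured by where the difference passed edgeR's test at an adjusted p under 0.05. Of the 9 members called in both organs, 20G158500 and 06G021200 are at the upper right, 18G231500 is at the lower left and 18G210500 is at the lower right.

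Over the 4 genotype comparisons (root and leaf, with and without NaCl), 58 members (73.4%) were called in at least 1, beside 39.6% of genes, and 21 (26.6%) in none, beside 60.4%. Calls in at least 2 were made for 23 members (29.1%), beside 11.5% of genes. Of the 23, 11 were only higher in GmNFYA (13.9% of the members, beside 3.33% of genes), 9 only lower (11.4%, beside 5.61%) and 3 both (3.80%, beside 2.52%). A single gene in each direction was called in all 4, beside 0.193% of genes higher and 0.275% lower. The lower one, 18G231500, had 128, 115 and 132 CPM in GmNFYA roots and 570, 555 and 525 CPM in Jack roots with NaCl, and 11.03, 10.39 and 12.9 CPM in GmNFYA and 113, 103 and 104 CPM in Jack roots untreated. In leaves with NaCl it had 9.32, 16.9 and 5.37 CPM in GmNFYA and 58.4, 77.6 and 34.95 CPM in Jack. GmNFYA libraries lay below Jack libraries throughout. The log2 differences with NaCl were -2.27 ± 0.10 in root (adjusted p = 6.62e-10) and -2.52 ± 0.42 in leaf (adjusted p = 0.00543), and that in untreated root was -3.31 ± 0.11 (adjusted p = 2.01e-11). In untreated leaves, with 0.0502, 0.113 and 0.152 CPM in GmNFYA and 2.09, 1.33 and 3.12 CPM in Jack, the call (adjusted p = 0.0343) was lost under 7 of 16 alternatives. Those were no low-count filter and the single omission of untreated GmNFYA replicate 1, 2 or 3, untreated Jack replicate 1 or 3, or Jack NaCl replicate 1. Its NaCl to untreated ratios were 10.5 and 5.16 in GmNFYA and Jack roots and 18.2 and 21.4 in GmNFYA and Jack leaves.

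The higher one, 06G021200, had 24.2, 29.5 and 38.8 CPM in GmNFYA roots and 13.4, 7.59 and 9.23 CPM in Jack roots with NaCl. In leaves with NaCl it had 886.5, 897.8 and 784.2 CPM in GmNFYA and 260.6, 453.9 and 398.5 CPM in Jack, and untreated 77.8, 68.5 and 73.0 CPM in GmNFYA and 32.4, 36.8 and 45.3 CPM in Jack. GmNFYA lay above Jack in each of these comparisons. The log2 differences with NaCl were 1.47 ± 0.30 in root (adjusted p = 0.00703) and 1.13 ± 0.20 in leaf (adjusted p = 0.00349). In untreated roots, 41 reads over GmNFYA and 3 over Jack gave a 12.7-fold difference with an exact 95% interval of 4.06 to 64.2 for counting error (adjusted p = 0.0493), and this call was lost under 9 of 16 alternatives, 7 of which leave out 1 library each: untreated GmNFYA replicate 1 or 2, any untreated Jack replicate, GmNFYA NaCl replicate 2 or Jack NaCl replicate 3. The untreated leaf call (log2 difference 0.85 ± 0.20, adjusted p = 0.0299) was lost without any 1 of the 3 untreated GmNFYA replicates, or without untreated Jack replicate 1 or 2.

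**Figure D5:**
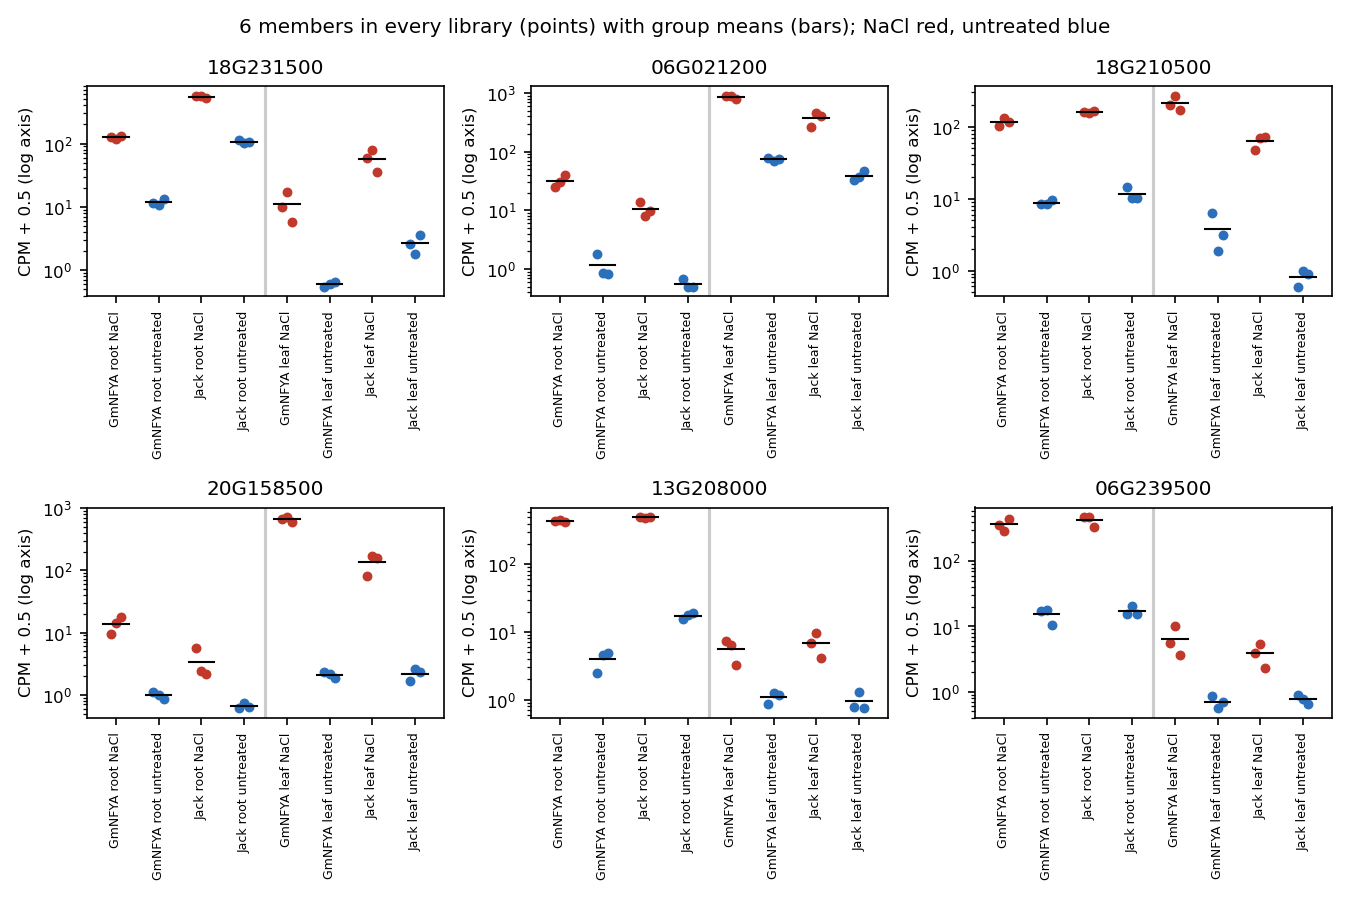
CPM + 0.5 (log axis) of 6 members in every library, root groups to the left of leaf groups; points are libraries, bars group means, red NaCl and blue untreated. The gene 18G231500 is lower in GmNFYA than in Jack in all 4 comparisons and 06G021200 higher, while 13G208000 and 06G239500 with NaCl stand far higher in root than in leaf.

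A majority of the members differed between root and leaf in each genotype and condition, as did a majority of all genes. In GmNFYA with NaCl, 30 members were higher in root (37.97%, beside 35.5% of all genes) and 29 higher in leaf (36.7%, beside 33.9%), in all 74.7% of the members beside 69.4% of genes. In Jack with NaCl, 36 were higher in root (45.6%, beside 34.4%) and 19 in leaf (24.1%, beside 35.5%), in all 69.6% beside 69.8%. In untreated GmNFYA, 31 were higher in root (39.2%, beside 36.7%) and 22 in leaf (27.8%, beside 34.2%), in all 67.1% beside 70.9%. In untreated Jack, 32 were higher in root (40.5%, beside 36.2%) and 17 in leaf (21.5%, beside 33.7%), in all 62.0% beside 69.9%. The median log2 difference, root minus leaf, with NaCl was -0.05 in GmNFYA and 0.40 in Jack over the members, and 0.03 and -0.02 over all genes. With NaCl, 29 members (36.7%) were higher in root in both genotypes, beside 29.2% of all genes, 17 (21.5%) were higher in leaf in both, beside 29.4%, and 1 (1.27%) went opposite ways, beside 0.551%. Organ and any batch of the 2 deposited tables cannot be told apart.

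A gene is called root-weighted or leaf-weighted here where the mean CPM plus 0.5 with NaCl was at least 5-fold higher in that organ in both genotypes. By this cut, 14 members (17.7%) were root-weighted, beside 6.5% of all genes tested, 6 (7.59%) were leaf-weighted, beside 6.78%, and 59 were neither. The root-weighted gene 13G208000 had 434, 449 and 428 CPM in GmNFYA roots and 6.83, 5.93 and 2.73 CPM in GmNFYA leaves, a log2 difference of 6.29 ± 0.34 (adjusted p = 1.32e-12). The gene 06G239500 had 476.3, 477.1 and 333.9 CPM in Jack roots and 3.47, 4.81 and 1.84 CPM in Jack leaves (log2 difference 6.90 ± 0.39, adjusted p = 3.62e-12). For 06G114300 the levels with NaCl were 182, 149 and 219 CPM in GmNFYA roots and 3.04, 4.42 and 0.810 CPM in GmNFYA leaves (log2 difference 5.96 ± 0.46, adjusted p = 7.91e-10). In each of these genes every root library exceeded every leaf library by more than an order of magnitude.

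The 6 leaf-weighted members were 20G158500, 06G021200, 09G185500, 03G238800, 14G162100 and 01G021000. The gene 20G158500 had 9.08, 13.6 and 17.3 CPM in GmNFYA roots and 659, 718.3 and 592 CPM in GmNFYA leaves with NaCl, so that every leaf library exceeded every root library (log2 difference -5.73 ± 0.34, adjusted p = 7.13e-12). Jack gave 5.16, 1.94 and 1.66 CPM in root and 81.2, 167 and 156 CPM in leaf. The levels of 09G185500 with NaCl were 5.12, 3.71 and 3.63 CPM in Jack roots and 104, 358 and 89.8 CPM in Jack leaves (log2 difference -5.55 ± 0.50, adjusted p = 2.86e-08). Without NaCl, 06G021200 was already higher in leaf, with 1.29, 0.373 and 0.313 CPM in GmNFYA roots and 77.8, 68.5 and 73.0 CPM in GmNFYA leaves.

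The size of the NaCl change differed between the organs for some members. In GmNFYA, 13 changed more in root and 18 more in leaf, 39.2% of the members beside 33.7% of all genes. In Jack, 11 changed more in root and 8 more in leaf, 24.1% beside 26.7%, and DESeq2 called 17 and 12 there. The balance in Jack turned to 8 and 10 without untreated Jack leaf replicate 2 and to 10 and 12 without Jack NaCl leaf replicate 3. The rule used these changes, and nothing is read from the counts. In GmNFYA, the largest difference in favour of root was in 13G208000, with ratios of 110 in root and 5.24 in leaf (log2 difference of changes 4.04 ± 0.70). In 15G256000 the ratios in GmNFYA were 19.7 in root and 6.445 in leaf (2.38 ± 0.48). In favour of leaf stood 13G221900, whose untreated level was 9.98, 10.6 and 9.92 CPM in GmNFYA roots and 0.1004, 0 and 0 CPM in GmNFYA leaves. With NaCl the organs came closer by ratio, though not by difference in CPM. Levels were 54.7, 55.4 and 57.4 CPM in GmNFYA roots and 28.1, 29.3 and 20.9 CPM in GmNFYA leaves. Only 2 reads were counted over the untreated GmNFYA leaves, so the untreated difference of 292-fold has an exact 95% interval of 80.6 to 2420, and the fitted size of the interaction depends on the small count added before taking logarithms.

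Members lay on all 20 chromosomes by the chromosome number in the ID, with 8 on chromosome 6, 1 each on chromosomes 1 and 4, and 1 on a scaffold. In the ID order, 3 pairs of members followed each other directly: 07G139700 with 07G139800, 14G145800 with 14G145900, and 17G127900 with 17G128000. Whether the genes of a pair are copies of each other was not looked up. Within a pair the levels were unequal. With NaCl, 07G139700 had 38.3, 36.9 and 49.1 CPM in GmNFYA roots, and its neighbour 07G139800 had 3.72, 3.37 and 4.71 CPM in the same libraries. The ratios of 07G139700 lay between 11.3 and 38.6 in the 4 pairs of groups, and those of 07G139800 between 5.52 and 6.52. In the third pair, 17G127900 was higher in GmNFYA than in Jack with NaCl in roots (log2 difference 1.04 ± 0.30, adjusted p = 0.0302), whereas 17G128000 was lower (-0.69 ± 0.12, adjusted p = 0.0012). The call for 17G127900 was lost under 5 of 16 alternatives, 4 of which leave out replicate 2 or 3 of NaCl roots of GmNFYA or of Jack, and the other fits a replicate block. Close by without being adjacent, 06G239500 and 06G239900 had 3 IDs between them, none above 0.152 CPM in any group mean, and 07G139400 and 07G139700 had 2 IDs between them.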

How the data were processed

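The authors deposited whole-number read counts per gene, not normalized, in 1 table per organ (57110 entries, of which 5 name no gene and hold 18.8 to 29.2% of reads; these 5 were left out). Per the submitters' processing notes, the tools were HISAT2, featureCounts and DESeq2, with no role or version listed. The genome build, annotation and strand setting were not given in the sources used here. Tables were joined by gene number, since the ID prefix differs between them.

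CPM used the sum of gene counts. Tests were edgeR 4.0.16 quasi-likelihood F tests in R 4.3.3 with Benjamini-Hochberg adjustment over all genes at 0.05, after filterByExpr (minimum count 10) and TMM scaling. Genotype was fitted over the 12 libraries of an organ (36390 genes in root, 35222 in leaf), and root against leaf over all 24 (39003 genes). The SE is the log2 difference divided by the square root of F. Script steps were tested on simulated data.

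The members, lists and naming rule were chosen with earlier results of these data known. Named genes were those with the highest NaCl levels, the highest ratios, ratios nearest the threshold, the largest called differences per comparison and direction, adjacent IDs, and calls in most genotype comparisons; a few others are named where a result needs them. A fold against 0 reads was set against 3 reads over the group, with the other count taken as exact. Intervals are exact (Clopper-Pearson) and cover counting error only. Alternatives were DESeq2 1.42.0, RLE scaling, no filter, a replicate block, leaving out each library, and other forms of the membership rule. One alternative, leaving out both leaf NaCl libraries numbered 3, was added after seeing the data. No libraries of a group agreed within sampling noise. Replicate numbers are those of the labels. Deviations of same-numbered GmNFYA and Jack leaf libraries with NaCl correlated at 0.12, 0.20 and 0.26, and the replicate block called 30 members there (23 without it). Those of Jack leaves with and without NaCl correlated at 0.31, 0.17 and 0.09, and those of Jack roots at 0.08, 0.17 and 0.20. Libraries with different numbers were not compared, so these values do not settle whether the numbers pair libraries. No other pair of groups compared had all 3 correlations over 0.1.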

Additional observations from a re-analysis of the deposited data

Results flagged for a closer look

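The size of the NaCl change differed between groups, by interaction terms of edgeR, for several members. Between GmNFYA and Jack it differed for 18 members in root (22.8%, beside 8.29% of all genes) and 7 in leaf (8.86%, beside 2.45%). Between root and leaf it differed for 31 members in GmNFYA (39.2%, beside 33.7%) and 19 in Jack (24.1%, beside 26.7%). All values below are log2 differences of the NaCl changes. The rule chose the members by these changes, so the values are a description and nothing is read from the counts.

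In root, the change was larger in GmNFYA than in Jack for 08G176300 (2.45) and 09G016400 (2.16) and smaller for 11G198500 (-2.61) and 08G140600 (-2.22). In leaf, it was larger in GmNFYA for 07G052100 (3.38) and 17G164200 (2.58). The call for 07G052100 was lost under 10 of 17 alternatives, and that for 17G164200 under 6 of 17. For 07G052100 the levels were 63.6, 47.5 and 36.6 CPM in GmNFYA leaves and 9.60, 14.2 and 3.99 CPM in Jack leaves with NaCl, and 0.552, 0.678 and 0.505 CPM in GmNFYA and 1.14, 1.55 and 0.730 CPM in Jack untreated. The single libraries whose omission ended its call were all 3 untreated GmNFYA and all 3 untreated Jack replicates, GmNFYA NaCl replicates 1 and 2, and Jack NaCl replicate 1. For 17G164200 they were all 3 untreated GmNFYA replicates, GmNFYA NaCl replicate 2 and untreated Jack replicate 2.

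In GmNFYA, the change was larger in root than in leaf for 13G208000 (4.04) and 15G256000 (2.38) and smaller for 13G221900 (-6.66) and 09G185500 (-4.99). The call for 09G185500 was lost under 15 of 28 alternatives. In Jack, the change was larger in root for 06G021200 (4.40) and 08G140600 (3.34) and smaller for 13G221900 (-6.50) and 14G145900 (-5.1). The call for 08G140600 was lost without untreated Jack leaf replicate 2. The sizes for 06G021200, 13G221900 and 14G145900 involve groups of at most 3 reads and depend on the small count added in the fit.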

How the results depend on the processing

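No result of a named gene reversed its direction. Over the 63 gene and comparison pairs the text rests on, 1189 results of alternatives kept direction and call and 121 lost the call. Most of these pairs were named for the largest called differences, so a reversal was unlikely from the start. In the organ comparisons, many alternatives left out a library outside the groups compared. DESeq2 called 13 members for the leaf genotype interaction (7 in edgeR) and 29 for the organ interaction in Jack (19). With single libraries left out, genotype counts ran between 27 and 38 (untreated root), 19 and 32 (NaCl root), 14 and 22 (root interaction), 4 and 13 (untreated leaf), 13 and 30 (NaCl leaf), and 0 and 10 (leaf interaction). Organ counts ran between 49 and 56, 55 and 62, and 26 and 36 in GmNFYA (untreated, NaCl, interaction). In Jack they ran between 45 and 52, 53 and 57, and 18 and 22. Shares of all genes under the alternatives are not given, so these ranges are not results about the members alone. The number of members was 133 with 0.1 CPM added instead of 0.5, 24 at a ratio of 8, 23 when the lowest NaCl library was set against the highest untreated one, and 70 to 83 with single libraries left out. With TMM factors the summed level was 670.5 CPM in untreated GmNFYA roots and 1101 CPM in untreated Jack roots.

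In leaves with NaCl the block ended no genotype call among the pairs followed. Same-numbered libraries correlated at -0.26 to 0.20 in root, with 2 of 18 pairs over 0.1. In leaf they correlated at -0.06 to 0.31, with 7 of 18, NaCl leaves included. Between root and leaf the correlations were -0.07 to 0.15, with 1 of 12. These values do not settle whether the numbers pair libraries. With a replicate block, counts were 34, 22 and 15 in root and 14, 30 and 9 in leaf (untreated, NaCl, interaction), 54, 59 and 33 for organ in GmNFYA and 49, 56 and 20 in Jack. Among the pairs followed, the block ended the calls of 13G363300 and 06G021200 in untreated root and of 17G127900 in NaCl root. It also ended those of 08G176300 for the root interaction and of 15G250100 for the leaf interaction.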
